A study of Mus musculus with 2 samples.

Results

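Integrins are cell-surface receptors made of 1 alpha and 1 beta subunit, and 10 genes of such subunits were followed here in a mouse pancreatic ductal adenocarcinoma line. The genes were chosen by name: the alpha subunits Itga1, Itga2, Itga3, Itga5, Itga6 and Itgav, and the beta subunits Itgb1, Itgb4, Itgb5 and Itgb6. All 10 were found among the 33696 features of the count matrix. The cells were KPCY 6419c5, a tumour line that carries the BASELINE lineage recorder. Per the labels they had been transfected with Cas12a-ABE, a Cas12a enzyme fused to an adenine base editor, grown from single sorted cells, and edited for 19 days. Clones 76 and 84, each the offspring of 1 cell, were mixed in equal parts and sequenced as 1 library. There was no unedited control and no second library among the cells used here, so every cell shares the line, the editor and the editing time.

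In the cell, the alpha and beta chains pair before they reach the surface, and the pair decides which matrix protein is bound. The beta chain of Itgb1 pairs with most of the alpha chains followed here, giving collagen receptors with Itga1 or Itga2, laminin receptors with Itga3 or Itga6, and the classical fibronectin receptor with Itga5. Itgb4 pairs only with Itga6, binds laminin-332 and anchors keratin filaments at hemidesmosomes, the rivets that hold epithelial cells to the basement membrane. Itgb5 and Itgb6 pair only with Itgav and bind the RGD sequence found in vitronectin, fibronectin and the latent form of TGF-beta. In pancreatic tumours, Itgb4 and Itgb6 are known as subunits of the carcinoma cells.

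A UMI, or unique molecular identifier, stands for 1 captured RNA molecule. Barcodes with fewer than 2000 UMIs or 1000 genes, or with over 15% of UMIs from mitochondrial genes, were set aside. Of 22178 barcodes, 21361 passed. They were sorted into groups by genes that are not integrins. A cells had at least 2 UMIs in the sum of Pde10a, Plcb1, Galnt18, Arhgap15 and Ceacam1 and at least 3 times the sum of S100a7a, Rgs20, Hs6st2, Ccbe1, Ctse and Mal. B cells met the mirror rule. This gave 7816 A cells and 8936 B cells, and 4609 cells met neither rule. The groups are groups of cells by expression, and no cell was assigned to clone 76 or 84. Because all cells came from 1 library, no test between the groups was made. The 95% intervals below are exact, and they cover counting error only.

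The groups differed in depth and in mitochondrial share. The median was 4699.5 UMIs in A cells and 5440.5 in B cells, with 3.19% and 1.89% mitochondrial UMIs. Of 9 ductal epithelial markers, 8 reached 10 CPM (UMIs per 1000000 of a group's summed UMIs) in at least 1 group, and the list summed to 2751 CPM in A cells and 7636 CPM in B cells. Epcam was higher in A cells, at 31.8 against 3.16 CPM, and Krt7, Krt18, Krt19, Cdh1 and Cftr were higher in B cells. The fibroblast, immune, endothelial and endocrine lists each summed to at most 4.37 CPM in either group, and the acinar list to 13.7 and 4.38 CPM. Dcn, Lum, Kdr and Ins1 had 0 UMIs in both groups, and Ptprc had 4 in A cells and 2 in B cells. The part of the depth, mitochondrial and epithelial marker differences in the integrin results was not tested, except where values are given below.

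The sequences before the transcription starts of 4 subunits are shown because their genes had unlike levels in the groups: Itga1 was more than 2-fold higher in A cells, Itga2 and Itgb6 were higher in B cells, and Itgb1 was nearly level. Each is the 250 bases before the first start listed by RefSeq for GRCm38.p6, written 5′ to 3′ on the gene's strand, with CpG dinucleotides in capitals. Itga2 and Itga1 lie next to each other on chromosome 13, on the same strand and with 0 annotated genes between them.
Itga1, chr13:115101965-115102214, minus strand: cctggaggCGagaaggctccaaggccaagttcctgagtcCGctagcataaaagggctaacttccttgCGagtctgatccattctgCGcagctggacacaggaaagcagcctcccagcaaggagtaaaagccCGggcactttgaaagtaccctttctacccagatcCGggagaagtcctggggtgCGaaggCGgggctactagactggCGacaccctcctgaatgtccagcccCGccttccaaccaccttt
Itga2, chr13:114932101-114932350, minus strand: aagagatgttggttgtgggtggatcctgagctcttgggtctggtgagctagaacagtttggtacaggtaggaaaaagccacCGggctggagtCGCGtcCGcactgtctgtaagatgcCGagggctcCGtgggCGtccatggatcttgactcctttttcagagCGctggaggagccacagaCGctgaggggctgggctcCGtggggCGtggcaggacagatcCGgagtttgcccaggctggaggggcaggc
Itgb6, chr2:60722604-60722853, minus strand: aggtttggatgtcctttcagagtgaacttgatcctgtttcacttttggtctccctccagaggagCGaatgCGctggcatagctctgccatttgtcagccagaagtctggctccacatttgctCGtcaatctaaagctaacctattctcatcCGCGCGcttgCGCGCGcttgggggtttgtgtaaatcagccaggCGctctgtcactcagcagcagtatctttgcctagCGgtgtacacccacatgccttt
Itgb1, chr8:128685404-128685653, plus strand: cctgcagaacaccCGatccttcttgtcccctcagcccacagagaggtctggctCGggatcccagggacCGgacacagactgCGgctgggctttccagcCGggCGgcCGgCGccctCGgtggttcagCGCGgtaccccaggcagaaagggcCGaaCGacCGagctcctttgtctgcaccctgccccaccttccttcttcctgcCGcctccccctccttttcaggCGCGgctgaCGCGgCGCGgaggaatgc
The Itga1 window holds 10 CpG dinucleotides, that of Itga2 12, that of Itgb6 11 and that of Itgb1 21, against a median of 6 over 32851 promoter windows of the same length. In all, 4 short motifs were searched on both strands. They were TGANTCA, the AP-1 site, in 6.75% of all windows; CACCTG, an E-box bound by Snail and Zeb factors, in 17.2%; GGGCGG, the GC box, in 32.7%; and GGAATG, the TEAD site, in 12.6%. None of the 4 has a match in the printed windows of Itga1, Itga2 and Itgb6, and that of Itgb1 has 1 GC box and 1 GGAATG match. RefSeq lists a second start for Itgb6, whose window, not printed, has 1 CACCTG match. A match or its lack describes only these letters. RefSeq promoter windows matched 8 of the 10 members, all except Itga6 and Itgb4.

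Itgb4 and Itgb6 were at 2.46 and 1.09 CPM in A cells and at 52.9 and 44.2 CPM in B cells, Itga2, Itga3 and Itga6 were 1.98-fold to 2.72-fold higher in B cells, and Itga1 was 3.84-fold higher in A cells. Itgb1, Itgav and Itgb5 differed little over all A and B cells. With a 2-fold threshold at 10 CPM or more in either group, 4 of the 10 members were higher in B cells (Itga2, Itga6, Itgb4 and Itgb6) and 1 was higher in A cells (Itga1). Over all 8800 genes at that level, 7.26% were more than 2-fold higher in B cells and 10.3% in A cells. The median log2 ratio of A over B cells was -0.78 over the members and 0.17 over all genes. When every ratio was centred on that median, the background shares became 8.93% and 7.76%, and Itga3 joined the members past 2-fold in B cells. At 50 CPM or more the counts were 3 of 7 members in B cells and 1 in A cells, against 6.68% and 7.6% of all genes. At a 1.5-fold threshold they were 5 and 1 of the 10, against 12.8% and 23.7%. Past 16-fold in favour of B cells were 2 members, Itgb4 and Itgb6, against 1.19% of all genes. The group rule and the members were chosen with earlier results of these cells known, so these counts describe the library and test nothing.

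**Figure D1:**
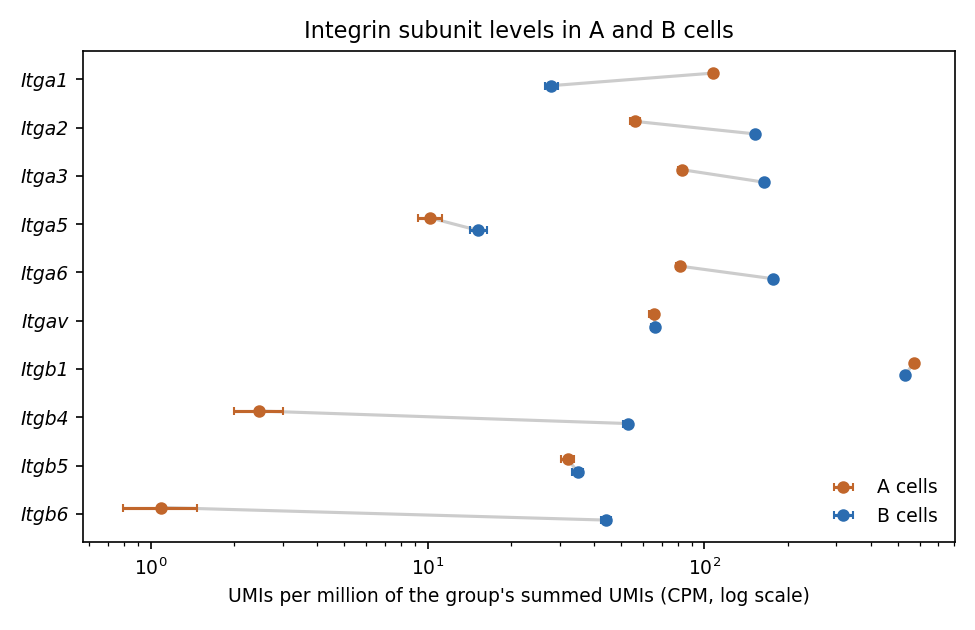
Level of each subunit in A cells (orange) and B cells (blue), in CPM on a log axis. Points are group sums and bars are exact 95% Poisson intervals for counting error. Itgb4 and Itgb6 are the widest pairs, at 2.46 against 52.9 CPM and 1.09 against 44.2 CPM, and Itgb1, Itgav and Itgb5 have points close together.

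Among the beta subunits, Itgb6 had the widest gap. It had 44 UMIs in all A cells, or 1.09 CPM (0.794 to 1.47), and 2334 UMIs in B cells, or 44.2 CPM (42.5 to 46.1). The ratio was 40.5-fold in favour of B cells (30.1 to 55.9), and 23 of the 8800 genes had a lower A over B ratio. The log2 ratio of -5.34 moved to -4.60 with a looser group rule and to -6.18 without the cells marked as doublets, and was -5.81 in cells of 4000 to 6000 UMIs with at most 3% mitochondrial UMIs. In that narrower window, 1411 A cells and 4588 B cells had medians of 4784 and 4958.5 UMIs, with mitochondrial shares of 2.68% and 1.88%, closer than in all cells but not equal. Together with Itgav, Itgb6 forms a receptor that can activate latent TGF-beta.

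Itgb4, the hemidesmosome chain, had 99 UMIs in A cells (2.46 CPM, 2.00 to 2.99) and 2793 UMIs in B cells (52.9 CPM, 51.0 to 54.9). Its ratio was 21.5-fold in favour of B cells (17.6 to 26.6), with 77 genes lower in A over B ratio. In the same narrower window the log2 ratio was -4.74, against -4.43 in all cells. The gene overlaps Galk1, which had the opposite sign (117.5 CPM in A cells and 63.5 in B cells).

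Free RNA from lysed cells and droplets with 2 cells can place a B cell's RNA in an A barcode, so a gauge was built from genes outside the rule. Of the 20 genes at 100 CPM or more with the largest B over A ratio, the A level was 2.80% to 14.5% of the B level, with a median of 9.18%. The A level of Itgb6 was 2.47% of its B level and that of Itgb4 was 4.64%. The first lies below the lowest gauge gene, Lamb3, and the second within the gauge's range. No expression of either gene in A cells was read from these traces. Itga1 in B cells was at 26.0% of its A level, Itga2 in A cells at 36.7% of its B level and Itga6 at 46.2%. These genes reached 100 CPM and were themselves eligible for the gauge. Any such gene outside the 20 chosen lies above the gauge of its direction by construction. The gauge therefore cannot decide how much of these levels came from free RNA or mixed droplets.

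Itgb1, the common beta chain, measured 569.84 CPM in A cells (22949 UMIs) and 531.54 CPM in B cells (28050 UMIs), a log2 ratio of 0.10 (0.08 to 0.13) that became -0.07 when centred on all genes, so its direction depended on the scaling. Itgb5, a vitronectin receptor chain with Itgav, had 32.0 CPM in A cells and 34.9 CPM in B cells, a log2 ratio of -0.12 (-0.23 to -0.02). Both chains differed by less than 1.1-fold between the groups.

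The alpha subunits fell into a collagen pair that pointed in opposite directions and a laminin pair that pointed the same way. Itga1, which forms the receptor for collagen IV and other collagens, had 107.62 CPM in A cells (104 to 111) and 28.0 CPM in B cells (26.6 to 29.5), 3.84-fold higher in A cells (3.62 to 4.08). Itga2, whose pair with Itgb1 prefers fibrillar collagen, had 56.1 CPM in A cells (53.8 to 58.5) and 152.68 CPM in B cells (149.4 to 156.05), 2.72-fold higher in B cells (2.60 to 2.85). These neighbouring genes thus had the opposite pattern, with a log2 ratio of 1.94 for Itga1 and -1.44 for Itga2. In the window of 4000 to 6000 UMIs and at most 3% mitochondrial UMIs the log2 ratio of Itga1 was 1.89.

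Itga6, the laminin-binding chain that pairs with both Itgb1 and Itgb4, had 81.8 CPM in A cells and 177.07 CPM in B cells, 2.16-fold higher in B cells (2.08 to 2.25). Itga3, the other laminin-binding chain, had 82.8 CPM in A cells and 164.2 CPM in B cells, 1.98-fold higher in B cells (1.90 to 2.06). That value sits just under the 2-fold threshold, and 5 of the alternatives put it past 2-fold. Itga5, the fibronectin chain, was low in both groups, at 10.2 CPM in A cells (9.27 to 11.3) and 15.3 CPM in B cells (14.2 to 16.4), 1.49-fold higher in B cells. Itgav, the partner of Itgb5 and Itgb6, had 65.7 and 66.6 CPM, a log2 ratio of -0.02 (-0.09 to 0.05) whose interval spans 0.

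Shares of cells repeat the same picture at equal depth. Each cell was thinned to 3000 UMIs, which left 7406 A cells and 8827 B cells. Itgb1 had a UMI in 80.5% of A cells (79.5 to 81.4) and 78.1% of B cells (77.2 to 78.9). Itga1 had one in 25.1% of A cells and 7.58% of B cells, Itga2 in 15.1% and 35.3%, Itga3 in 21.5% and 38.2%, and Itga6 in 21.9% and 39.9%. Itgb4 was seen in 0.689% of A cells (0.513 to 0.904) and 14.4% of B cells, and Itgb6 in 0.243% (0.144 to 0.384) and 11.8%. Itgav was in 18.2% and 18.5%, Itgb5 in 9.37% and 9.90%, and Itga5 in 2.89% and 4.25%. Before thinning, the A and B shares were 36.2% and 14.4% for Itga1, 1.24% and 25.9% for Itgb4, and 0.537% and 21.2% for Itgb6. No cell type that should lack these genes was found in the library, so the gauge above stands in for such a background.

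**Figure D2:**
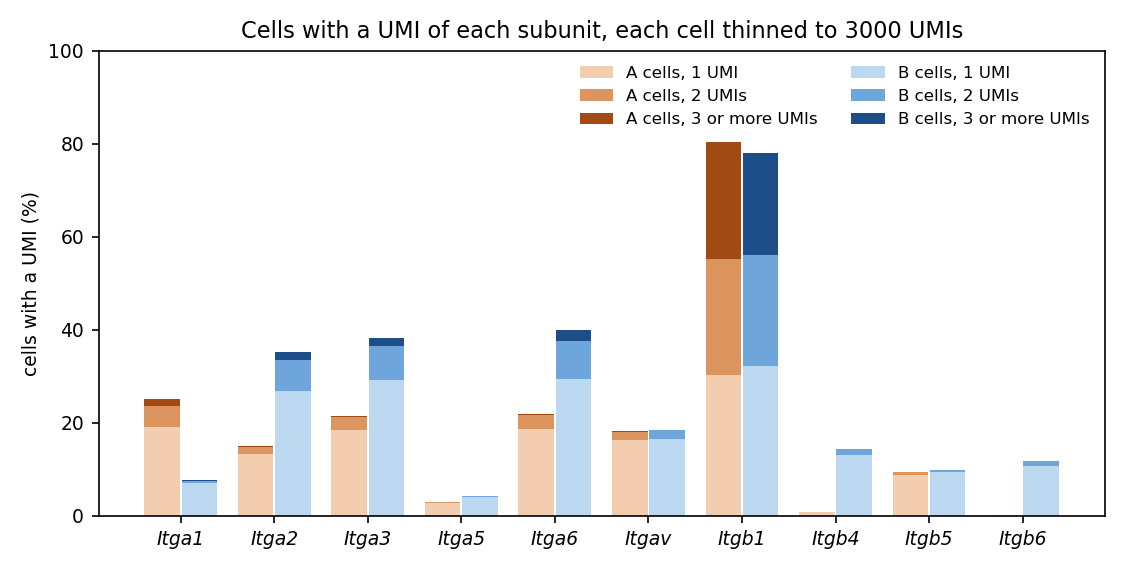
Share of A cells (orange) and B cells (blue) with a UMI of each subunit after thinning to 3000 UMIs per cell, split by 1, 2 and 3 or more UMIs. Most positive cells have 1 UMI, except for Itgb1, where 25.3% of A cells and 22.0% of B cells have 3 or more.

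The summed level of the 10 subunits was 1009.7 CPM in A cells (999.9 to 1019.5) and 1267 CPM in B cells (1258 to 1277). At equal depth an A cell had UMIs of a median of 2 of the 10 genes and a B cell of 3, with at most 6 and 8 in 1 cell. At least 1 alpha and 1 beta chain were seen together in 56.3% of A cells and 69.3% of B cells. The share of cells with 5 or more subunits was 1.62% in A cells and 6.30% in B cells, and no subunit was seen in 6.08% and 3.07%. At 3000 UMIs a cell can carry a subunit's RNA and show no UMI of it.

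Other integrin genes were low. None of 16 further subunits reached 10 CPM in either group. Itgb3, which pairs with Itgav, had 5.36 CPM in A cells and 9.85 in B cells. Itga7, a laminin-binding chain of muscle, had 90 UMIs in A cells and 14 in B cells, and Itga4 had 63 and 163. The leukocyte chains Itgal, Itgam and Itgb2 had at most 4 UMIs in a group, and Itgax had 0 in both, for which the exact intervals reach 0.0916 CPM in A cells and 0.0699 CPM in B cells. Itgb8, another partner of Itgav, had 17 UMIs in A cells and 2 in B cells. The platelet chain Itga2b had 6 and 15 UMIs, Itga10 had 13 and 42, Itga11 had 5 and 18, Itgae had 22 and 26, and Itgb7 had 13 and 23. Itga8, Itga9 and Itgad had at most 3 UMIs in a group.

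The genes around the receptors were read as lists chosen for the pathway. Their counts past 2-fold stand against 10.3% of all genes higher in A cells and 7.26% higher in B cells. Of 9 laminin genes, 5 were at 10 CPM and 1, Lamb3, was past 2-fold, higher in B cells, where 7.26% of all genes were. Lamb3 is a chain of laminin-332, the ligand of Itga6 with Itgb4. It had 3.40 CPM in A cells and 121.68 in B cells, 35.8-fold higher (30.2 to 42.7). Lama3, another chain of that laminin, stayed below 10 CPM and was named after its values were seen: 0.273 CPM in A cells and 3.43 in B cells. Itgb4 and these chains of its ligand were thus higher in the same group. Among the other laminins, Lamc1 had 48.3 CPM in A cells and 63.0 in B cells, Lamb1 had 25.1 and 21.2 CPM, and Lamb2 had 11.1 and 5.57 CPM.

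Of the hemidesmosome genes, 3 of 4 were at 10 CPM and 1 was past 2-fold, in B cells, where 7.26% of all genes were. Plec, which links Itgb4 to keratin filaments, had 86.9 CPM in A cells and 325.25 in B cells, 3.74-fold higher in B cells. Dst had 181.04 and 299.73 CPM, 1.66-fold higher in B cells, and Col17a1 had 1 UMI in each group. Cd151, a tetraspanin of laminin-binding integrins, had a log2 ratio of 0.33.

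Of the RGD ligands and TGF-beta genes, 10 of 12 were at 10 CPM, 4 higher in A cells and 2 higher in B cells, beside 10.3% and 7.26% of all genes. Tnc was the furthest to A cells, at 59.5 against 1.55 CPM, and Tgfb2 had 18.5 against 1.88 CPM. Fn1, the ligand of Itga5 with Itgb1, had 166.91 CPM in A cells and 17.9 in B cells, and Thbs1 had 100.61 and 17.7 CPM. Fn1 and Thbs1 lie outside the naming rule and were chosen after their values were seen. On the B side Ltbp1, which holds latent TGF-beta, had 3.48 against 39.6 CPM, and Ccn2 78.8 against 218.55 CPM. Spp1, or osteopontin, had 1052 CPM in A cells and 751 in B cells, and Ccn1 had 184.27 and 219.4 CPM. Itga5, the fibronectin chain, did not share the direction of Fn1.

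Of the linkers and activators, 16 of 20 were at 10 CPM, 2 higher in A cells and 1 higher in B cells, near the 10.3% and 7.26% of all genes. Rsu1, a part of the complex of Ilk, Pinch and parvin, was at 106.6 against 29.3 CPM and Tln2, a talin, at 36.0 against 14.5 CPM, both higher in A cells. Tns4, a tensin, was higher in B cells, with 1.79 against 31.5 CPM. Tln1, which binds the beta tails, was nearly level, at 186.4 and 217.69 CPM. Actn4, an actin crosslinker, had 252.6 and 163.52 CPM, and Parvb, a parvin, had 28.8 and 52.2 CPM.

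In the signalling list 18 of 21 were at 10 CPM, with 2 past 2-fold in each direction. Rap1gap and Nedd9 were higher in A cells, by log2 1.94 and 1.89, and Cav1 and Ptk2b higher in B cells, by log2 ratios of -2.79 and -1.03. Plaur, the urokinase receptor, had a log2 ratio of -0.46, and Rap1a, a small GTPase that activates integrins, one of -0.35. A list of inactivators and other integrin regulators, named inactivators in the figure, had 5 of 6 at that level. Of these, Dab2, an endocytic adaptor, was past 2-fold, higher in B cells at a log2 ratio of -1.37. Kank1, Kank2 and Sharpin had log2 ratios of 0.48, 0.23 and -0.20. The tetraspanin and partner list had 0 of 6 past 2-fold, and the collagens 1 of 4, Col18a1, at a log2 ratio of -1.64. The shares of all genes were 10.3% in A cells and 7.26% in B cells. Cd63, Bsg, Cd81, Slc3a2 and Cd47 had log2 ratios of 0.18, -0.11, 0.81, 0.20 and -0.31. Of the collagen IV chains, Col4a1, Col4a2 and Col4a5 had log2 ratios of 0.14, -0.09 and -0.73.

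**Figure D3:**
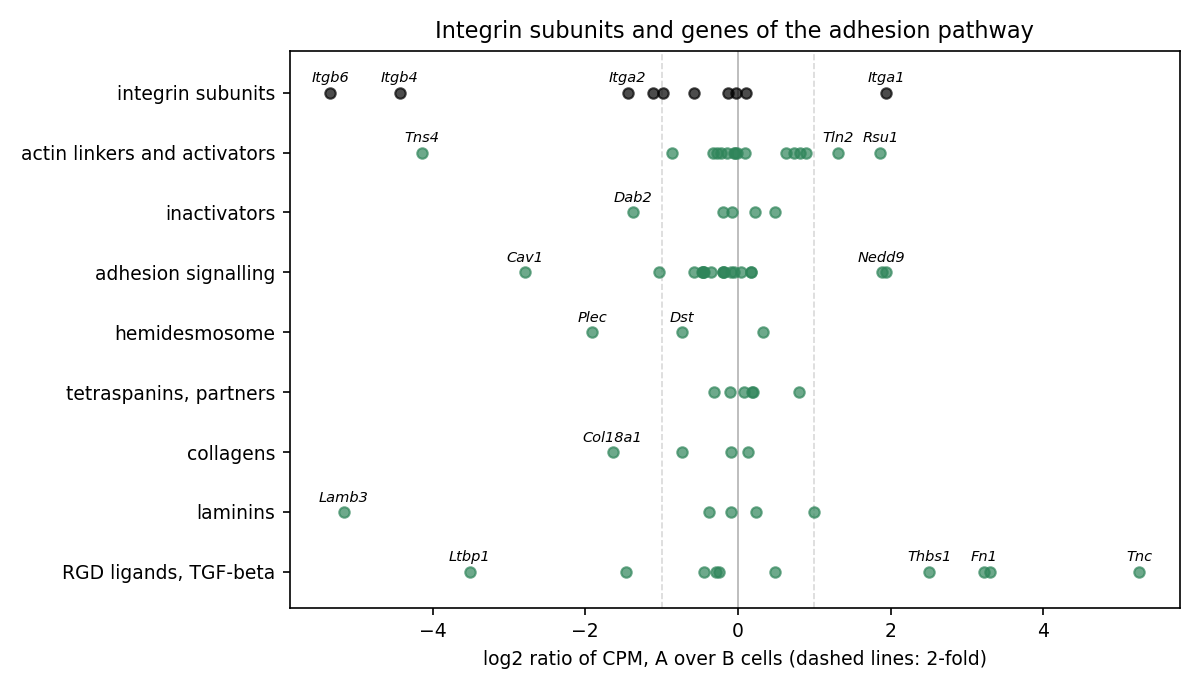
Log2 ratio of CPM in A over B cells for the 10 subunits (black) and for genes of the adhesion pathway at 10 CPM or more (green), 1 row a list, with dashed lines at 2-fold. The 2 lowest subunits are Itgb6 and Itgb4; Lamb3 and Tns4 lie beside them on the left, and Tnc is furthest to the right.

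The subunits also varied inside each group. A cells were split by genes that are not integrins into 1142 cells high in Epcam, S100g and Tm4sf20 and 2478 cells high in Tnc, Acta2 and Ptchd4; 4196 cells met neither rule. The state genes came from earlier results of these cells, so what follows is a description. Itga1 was 205 CPM (193.3 to 217.2) in the Epcam state and 77.5 CPM (72.9 to 82.2) in the Tnc state, 2.65-fold higher in the first. Itga2 was 80.2 and 44.4 CPM, 1.81-fold higher in the first. Of the 8 members at 10 CPM, these 2 were more than 1.5-fold lower in the Tnc state and 0 were more than 1.5-fold higher there. Over all genes, 8.79% were more than 1.5-fold lower in the Tnc state and 3.77% were higher. Itgb1 was 581.56 and 592.01 CPM, nearly level. The Epcam state had a median of 4507 UMIs and 3.55% mitochondrial UMIs and the Tnc state 5155.5 UMIs and 3.10%, and their part was not tested. Fn1 had the reverse order, at 69.0 CPM in the Epcam state and 243.68 in the Tnc state.

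B cells were split into 541 cells high in Krt14 and Sprr1a and 4714 cells high in Areg, Btc and Cftr, with 3681 in neither. Itgb6 was 63.5 CPM (55.3 to 72.5) in the Krt14 state and 38.4 CPM (36.1 to 40.7) in the Areg state, 1.65-fold higher. Itga5 was 20.9 against 13.3 CPM and Itgb5 48.7 against 31.8 CPM, 1.57-fold and 1.53-fold higher in the Krt14 state. Of the 10 members at 10 CPM, these 3 were more than 1.5-fold higher in the Krt14 state and 0 were more than 1.5-fold lower. Over all genes 5.55% were more than 1.5-fold higher in the Krt14 state and 3.08% lower. Itgb4 was level, at 52.7 and 52.3 CPM, so the beta chains Itgb4 and Itgb6 did not move together across the B states. The Krt14 state was deeper, with a median of 6097 UMIs against 5530.5, and the part of depth was not tested.

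**Figure D4:**
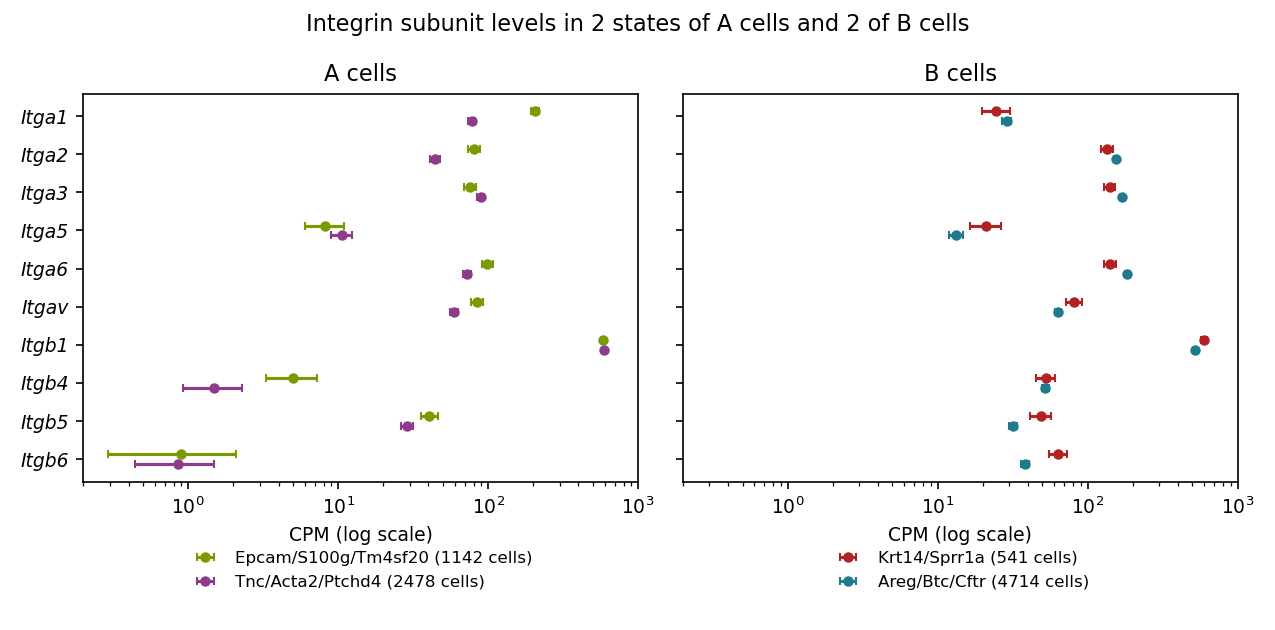
Level of each subunit, in CPM on a log axis with exact 95% Poisson intervals, in 2 states of A cells (left) and 2 of B cells (right). On the left, Itga1 and Itga2 are higher in the Epcam state; on the right, Itgb6, Itga5 and Itgb5 are higher in the Krt14 state and Itgb4 is level.

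Cycle classes were read for both groups. Against the other cells of its group, the top 10% of cells by late mitosis genes had 0 members past 1.5-fold in A cells and 0 in B cells. Over all genes, 2.82% were more than 1.5-fold higher and 2.09% lower in the A comparison, and 2.24% and 1.68% in the B comparison. The lowest 10% of A cells by cycle genes had 4 of 8 members more than 1.5-fold higher: Itga1 at 217.95 against 98.3 CPM, Itgb5 at 59.2 against 29.7, Itgav at 108.17 against 62.1 and Itga2 at 89.9 against 53.2. In that comparison 17.8% of all genes were higher and 11.2% lower. The Epcam state held 44.9% of those cells and 14.6% of all A cells, and their median was 3605 UMIs against 4699.5, so state and depth moved with the class and their part was not tested. The lowest 10% of B cells had 0 members past 1.5-fold, with Itgb6 at 61.3 against 42.6 CPM; 4.15% of all genes were higher there and 6.15% lower. The Krt14 state held 14.6% of those cells and 6.05% of all B cells, and their median was 4721 UMIs against 5440.5; the part of both was not tested.

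The subunits showed little correlation from cell to cell within a group. Over the 45 pairs, the Pearson r of log-scaled UMIs in thinned cells ran from -0.03 to 0.06 in A cells (median 0.0046) and from -0.02 to 0.04 in B cells (median 0.0098). No pair had r above 0.1 in either group at 3000 UMIs, at 5000 UMIs or without thinning. In sparse counts such values are no finding, and cells share the library and its depth. The highest pair in A cells was Itga1 with Itga2, found together in 343 cells against 280.68 expected from their shares, 1.22 times. Both genes were higher in the Epcam state of A cells, and the part of that state in this pair was not tested. In B cells it was Itgav with Itgb1, at 1304 cells against 1276 expected.

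The pairs that form receptors were compared with the number their shares give. For Itgb1 with each of the 6 alpha chains, the ratio of observed to expected cells ran from 0.93 to 1.03 in A cells and from 0.96 to 1.02 in B cells. Itgav and Itgb5 were at 1.09 in A cells and 1.01 in B cells. Itga6 and Itgb4 were found together in 525 of 8827 B cells (5.95%, 5.46 to 6.46), against 506.33 expected, 1.04 times. Itgav and Itgb6 were found together in 219 B cells (2.48%, 2.17 to 2.83), against 193.01 expected, 1.13 times. In A cells these pairs were found together in 15 and 2 cells, against 11.2 and 3.28 expected, too few to read. For alpha and beta chains that form no receptor, the ratio in B cells ran from 0.70 (Itga5 with Itgb5) to 1.15 (Itga1 with Itgb4). At 3000 UMIs the ratios of the receptor pairs lie within that range. At 5000 UMIs, Itgav and Itgb6 were together in 356 B cells against 309.21 expected, 1.15 times. That was above the highest pair forming no receptor, Itgav with Itgb4 at 1.12, and the difference was not tested. Itgb1 had a UMI in 78.1% of B cells at 3000 UMIs, so its pairs had little room to exceed the expected number. Itgb4 and Itgb6 were together in 171 B cells, 1.14 times the expected number. When A and B cells were put together, the same pair reached 2.00 times expected and an r of 0.08, the highest of the pooled pairs, and Itga1 with Itgb6 was the lowest at -0.07. The pooled values carry the difference in level between the groups.

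**Figure D5:**
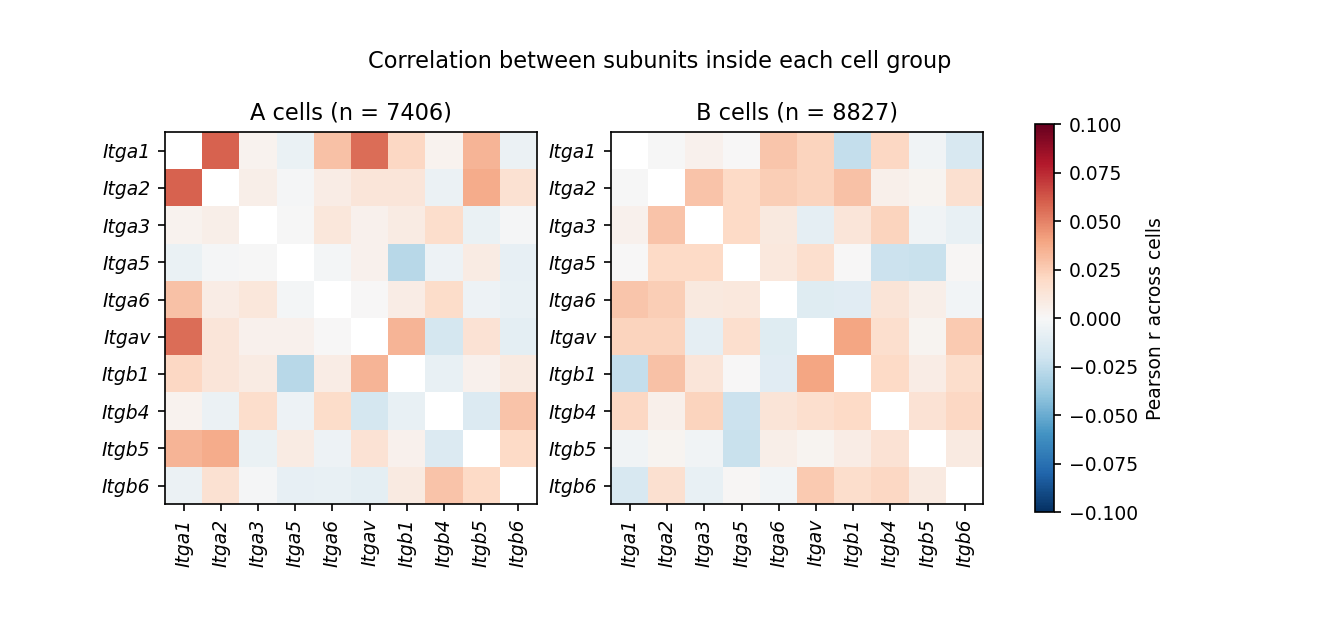
Pearson r between each pair of the 10 subunits across A cells (left, 7406 cells) and B cells (right, 8827 cells), thinned to 3000 UMIs per cell, on a colour scale from -0.1 (blue) to 0.1 (red). Both panels are pale, with the highest value at 0.06 (Itga1 with Itga2 in A cells).

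Genes most like each subunit were ranked by the mean of their r in A and in B cells, over 2864 genes at 50 CPM or more in both groups. For Itga1 they were Gsta4 (mean r 0.09), Alcam (0.09) and Lgals4 (0.09), and the A values, from 0.14 to 0.15, were higher than the B values, from 0.02 to 0.04. Itgb4 and Itgb6 are left out, since no expression in A cells was read for them. Alcam, a cell adhesion molecule, also led the list of Itga2, at 0.06, and Lgals4 that of Itga6, at 0.06. All of these correlations are weak.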

How the data were processed

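The report covers 1 droplet 3′ library. Counts of UMIs per gene and cell barcode were used as the authors deposited them, with no normalization. Per the submitters' processing notes, Cell Ranger 8.0.1 and GRCm39 were used; other steps are not given in the sources used here. A second sample, a pool of 5 clones, was not analysed here.

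Cells were filtered on 2000 UMIs, 1000 genes and 15% mitochondrial UMIs, which removed 817 barcodes, and UMIs were summed per group and scaled to CPM. Poisson, conditional binomial and Clopper-Pearson 95% intervals (scipy 1.17.1) cover counting error only. Ratios were read at 10 CPM or more. For shares and correlations, cells were thinned to 3000 UMIs, leaving out 410 A and 109 B cells as too shallow. The group rule removes mixed cells in part; no doublet caller was applied in the main values. Scrublet (scanpy 1.11.5) marked 778 of 21361 cells (3.64%) and was used as an alternative.

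The members, the group rule, the state genes and the lists were chosen with earlier results of these data known. The genes named are all members, all other integrins, and of each list the 2 with most UMIs and the 2 furthest each way; exceptions are stated. In the laminin list, 1 gene is not reported here and was left out of the list's counts. Ratios and intervals were tested on simulated counts that held counting error only. That test says nothing on variation between cells or on free RNA. Promoter windows came from RefSeq (GRCm38.p6), matched by symbol. UMIs at 3′ ends do not rank genes by level.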

Additional observations from a re-analysis of the deposited data

Results flagged for a closer look

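Integrin UMIs were also present in the barcodes that the comparison of A and B cells leaves out, and these values are given because no comparison uses them. The 4609 cells that met neither group rule had a summed level of 1027 CPM (1014 to 1040) over the 10 subunits. Among these, the 3824 cells with fewer than 2 UMIs of the rule genes had 67.7 CPM of Itga1, 18.8 CPM of Itgb4 and 11.3 CPM of Itgb6, each between the A and the B value. Itgb1, at 516.48 CPM (505.63 to 527.5), was below both the A and the B value. Itgav, at 65.3 CPM (61.5 to 69.3), was level with both, since its interval holds the A and the B value. The 817 barcodes that failed the filter had 1574.4 CPM (1495 to 1657), with Itgb1 at 694.65 CPM and Itgav at 141.48 CPM. Their median was 1087 UMIs and 11.1% mitochondrial UMIs.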

How the results depend on the processing

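The count of members more than 2-fold higher in A cells was 1 under every alternative run, and that in B cells was 3 to 5. The lower count came with a minimum of 50 CPM, at which 7 members were tested, and Itga3 crossed 2-fold in 5 of the settings. The median log2 ratio moved from -0.78 to -0.95 when centred on all genes and to -0.99 at a minimum of 50 CPM; the first subtracts the shift of all genes and the second tests fewer members. Of 90 member ratios over 9 settings, 62 stayed within their counting spread and 28 moved, and 3 changed sign, all of them for Itgav or Itgb1. The window of 4000 to 6000 UMIs and at most 3% mitochondrial UMIs was chosen after seeing the data. Within it the log2 ratios of Itgav and Itgb5 were -0.21 and -0.39, against -0.02 and -0.12 over all A and B cells. No pair of members passed r of 0.1 within a group under any depth. Depth limits Itgb4 and Itgb6 in A cells, at 99 and 44 UMIs. No paired analysis was possible because the comparison lies within 1 library and has no replicates.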

Other observations

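Neighbouring genes had the direction of the member in some cases and the opposite one in others. Both nearest genes at 10 CPM beside Itga6 were, like it, higher in B cells: Dlx2 had a log2 ratio of -4.09 and Map3k20 of -0.98, against -1.11 for Itga6. Pelo, which lies within Itga1, had 21.3 CPM in A cells and 27.6 CPM in B cells, a log2 ratio of -0.37, against 1.94 for Itga1. Ly75, the nearest gene at 10 CPM before Itgb6, had 21.5 against 3.98 CPM, higher in A cells, where Itgb6 was lower. The genes at 10 CPM on chromosome 2, which holds Itga6, Itgav and Itgb6, had a median log2 ratio of 0.57 (673 genes). The median was 0.42 on chromosome 16, which holds Itgb5, and 0.38 on chromosome 8, which holds Itgb1. It was 0.07 on chromosome 11 (Itga3 and Itgb4), 0.06 on chromosome 13 (Itga1 and Itga2, 321 genes) and -0.04 on chromosome 15 (Itga5). Over all genes it was 0.17. The 3 members on chromosome 2 had log2 ratios of -1.11, -0.02 and -5.34.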
